A study of Mus musculus with 14 samples.

Results

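Of the 6 neurosphere lines of this series, 2 held transcripts of Hoxa2, a homeobox gene whose domain in the embryo begins in the hindbrain, and 4 held none that was counted. The split was made on the measured level: a line was called Hoxa2-positive above 5 CPM (expected reads of a gene over all expected reads of the library, times 1000000) and Hoxa2-negative at 5 or below. The positive lines were WT line 2, with 20.2 CPM from 41 reads, and KO line 3, with 18.1 CPM from 49 reads. The negative lines, WT lines 1 and 3 and KO lines 1 and 2, each had 0 reads. A count of 0 over these 4 libraries allows up to 3 reads, or 0.314 CPM, counting error only. The nearest values on the 2 sides of the threshold were thus 18.1 and 0 CPM. Hoxa2 itself was not tested, since it made the groups.

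The series holds 14 libraries, each from an independent, untreated primary line of mouse cells, started from embryos at E13.5. Heads gave the 6 neurosphere lines, free-floating cultures of neural stem and precursor cells, of which 3 were wild type (WT) and 3 carried the targeted H3f3a allele (KO). Bodies without internal organs gave 8 lines of embryonic fibroblasts (MEFs), 3 WT and 5 KO, used here only as levels for comparison. RNA was read from transcript 3′ ends, and the 6 neurosphere libraries held 1669406 to 2874677 counts in genes. H3f3a, which encodes the histone variant H3.3, had 1920 to 2465 CPM in the WT and 27.7 to 70.4 CPM in the KO neurosphere lines, so each class held lines of both genotypes with the targeted gene at the level of their labels. Which part of the head each line came from is not given in the labels.

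Hox genes lie in 4 clusters, and in the embryo their order along the cluster follows the order of their domains from the hindbrain to the tail. Paralogs of low number are on in the hindbrain, and those of higher number further back in the spinal cord and trunk. Otx2 is a transcription factor of the front of the neural tube and marks forebrain and midbrain. Neural stem cells kept in culture can hold part of such a regional code.

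Promoters of Hox genes are shown for 3 genes that separate the lines: Hoxa2, which made the split, Hoxd4, which was counted in both positive lines and in no negative line, and Hoxb8, which was counted in WT line 2 alone. Each is the 200 bases before the RefSeq start site on mouse build GRCm38.p6, written 5′ to 3′ on the gene's strand. They lie at chr6:52164832-52165031 (minus strand) for Hoxa2, chr2:74721778-74721977 (plus strand) for Hoxd4 and chr11:96281705-96281904 (plus strand) for Hoxb8. Capitals mark a match to TGATNNAT, a paired site for PBX and HOX proteins, searched on both strands.
Hoxa2: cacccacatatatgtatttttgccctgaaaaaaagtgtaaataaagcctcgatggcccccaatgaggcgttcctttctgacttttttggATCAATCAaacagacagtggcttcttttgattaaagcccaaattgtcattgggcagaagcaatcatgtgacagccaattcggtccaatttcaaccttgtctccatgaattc
Hoxd4: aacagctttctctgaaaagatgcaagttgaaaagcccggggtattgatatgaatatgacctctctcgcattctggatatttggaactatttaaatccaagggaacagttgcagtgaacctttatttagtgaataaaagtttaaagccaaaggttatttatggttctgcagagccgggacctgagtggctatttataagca
Hoxb8: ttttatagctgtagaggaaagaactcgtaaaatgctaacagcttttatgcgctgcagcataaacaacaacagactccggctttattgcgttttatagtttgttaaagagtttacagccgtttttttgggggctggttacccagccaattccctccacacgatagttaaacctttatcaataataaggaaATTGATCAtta

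Over the 250 bases before the start, TGATNNAT was found for 4 of the 22 Hox genes with a promoter in the RefSeq table (Hoxa2, Hoxb1, Hoxb8 and Hoxd11). Counted by window, it was in 4 of 24 Hox windows and in 7.68% of all 32851 promoter windows. TAATTA, a core site of many homeodomains, was found for 1 Hox gene, Hoxd11, in 2 of the 24 Hox windows, and in 4.84% of all windows. ATTTGCAT, the octamer site of POU factors, was found for none of the 22 Hox genes and in 1.60% of windows. All were searched on both strands, the motifs can overlap each other in part, and a match is a description of the sequence only. The motif was present in Hoxa2 and absent from Hoxd4, both of which were counted in both positive lines.

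The 2 positive lines shared a block of Hox genes and differed in others. Most genes of the block were of low number, while Hoxd8 was of higher number. Hoxb2, Hoxb4, Hoxd3, Hoxd4 and Hoxd8 had reads in both positive lines and 0 in all 4 negative lines. Hoxb4 had 28.1 CPM in WT line 2 and 10.7 CPM in KO line 3, at least 61.9-fold above the level that 3 reads over the negative lines would give. Hoxd4 had 12.3 and 18.9 CPM, at least 49.7-fold above that level, and Hoxd8 had 36.0 and 9.99 CPM, at least 73.3-fold above it. Hoxb3, a hindbrain paralog, had 72.0 and 47.0 CPM in the positive lines and 0, 0, 1.23 and 1.79 CPM in WT lines 1 and 3 and KO lines 1 and 2. Hoxa3 had 19.2 and 15.9 CPM in the positive lines, against 3.58 CPM in KO line 2 and 0 in the other negative lines. Hoxa3 lies beside Hoxa2 in the HoxA cluster, while the other genes of this block lie in the HoxB and HoxD clusters on other chromosomes. Hox genes were chosen for their relation to the gene that made the split, so their levels are read as a description.

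Some paralogs of higher number set the 2 positive lines apart from each other, though Hoxd8 and Hoxa5 had reads in both. Hoxb8 had 144 CPM in WT line 2 and 0 in KO line 3, and Hoxb7 had 25.1 CPM and 0. Hoxa7 had 97.1 CPM in WT line 2 and 4.81 CPM in KO line 3. Hoxa5 had 465 CPM and 131 CPM, the most reads of any Hox gene in either line. WT line 2 held reads of 23 of the 39 listed Hox genes, with HoxC transcripts at 7.40 CPM in sum, while KO line 3 held reads of 14 and none from the HoxC cluster.

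**Figure D1:**
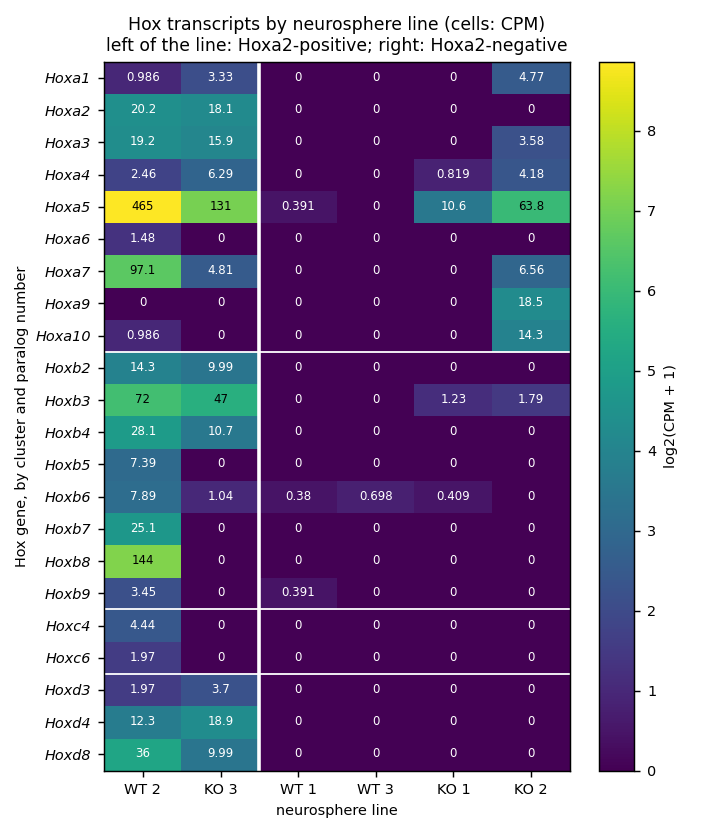
Level of each Hox gene with at least 1 CPM in a neurosphere line (rows, by cluster) in each line (columns; the white line parts the 2 Hoxa2-positive from the 4 negative lines). Colour is log2(CPM + 1) and the printed numbers are CPM: Hoxb8 stands at 144 CPM in WT line 2 alone, and KO line 2, a negative line, holds Hoxa9 at 18.5 CPM.

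The negative lines were not all without Hox transcripts. Summed over the 39 genes, Hox levels were 969 CPM in WT line 2 and 281 CPM in KO line 3, against 2.33 and 1.04 CPM in WT lines 1 and 3 and 13.1 and 118 CPM in KO lines 1 and 2. KO line 2 held 116 of its 118 CPM in the HoxA cluster, with Hoxa5 at 63.8, Hoxa9 at 18.5 and Hoxa10 at 14.3 CPM, while its Hoxa2 count was 0 and its Otx2 level was 47.1 CPM. Hoxa9 was counted in no other neurosphere line. The split by Hoxa2 is therefore not a split by Hox expression as a whole. The MEF lines, from the trunk, had 519 to 776 CPM of Hox transcripts but only 0.364 to 1.68 CPM of Hoxa2.

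Of the 12 listed paralogs of groups 1 to 4, 6 passed the filter on low counts, and all 6 had a positive log2 difference (median 7.14, or 5.46 with genes at 0 in the negative lines set to their bound). Of these 6, 5 had both positive lines above all 4 negative lines, where 13.0% of all 11121 tested genes did. Among the 11 paralogs of groups 5 to 8, 3 passed the filter and 2 had both positive lines above, and of the 16 paralogs of groups 9 and above none passed. A gene with 0 reads in the negative lines passed the filter only through its level in the positive ones, so these counts are no support for a Hox difference.

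Otx2, named as a marker beside Hoxa2 but not used for the split, had 63.3, 20.4, 29.5 and 47.1 CPM in the negative lines. It had 0 in WT line 2 and 1 read (0.370 CPM) in KO line 3, so the classes did not overlap. Otx2 did not pass in edgeR (adjusted p = 0.0804) and passed in DESeq2 (adjusted p = 0.000209). The ratio of negative to positive lines for Otx2 was 184 (95% exact counting interval 32.8 to 7289). Six3, a factor of the anterior forebrain and eye field, had 67.2, 9.01, 6.14 and 22.1 CPM in the negative and 1.48 and 1.11 CPM in the positive lines; it did not pass in edgeR (adjusted p = 0.526) and passed in DESeq2 (adjusted p = 0.00616).

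Of the 39 listed forebrain factors, 17 were tested, 15 of them had a negative log2 difference, and the median was -1.05, beside 0.00 over all tested genes. In 4 of the 17 both positive lines lay below all negative lines, which 8.01% of all tested genes did. EdgeR called 1 of the 17, lower, and DESeq2 called 4, all lower, beside 0.0360% and 0.764% of all tested genes. Nr2e1, a nuclear receptor of forebrain progenitors, was among the 4, with 31.2, 11.4, 28.7 and 29.2 CPM in the negative and 0.493 and 8.51 CPM in the positive lines (DESeq2 adjusted p = 0.0272, edgeR adjusted p = 0.510). Of the 17, 1 had 0 reads in both positive lines and passed the filter on low counts only through the negative lines. The counts and the median of this list are therefore no support for a forebrain difference. In other members of the list the classes overlapped. Pax6, a factor of dorsal progenitors, had 64.5, 35.0, 42.9 and 68.6 CPM in the negative and 73.9 and 59.6 CPM in the positive lines. Emx2, a cortical factor, had 10.4 to 36.4 CPM in the negative and 23.7 and 28.1 CPM in the positive lines. Otx1 differed between the positive lines: WT line 2, at 0.986 CPM, lay below all negative lines, which had 7.75 to 32.0 CPM, and KO line 3, at 13.3 CPM, lay within their range.

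**Figure D2:**
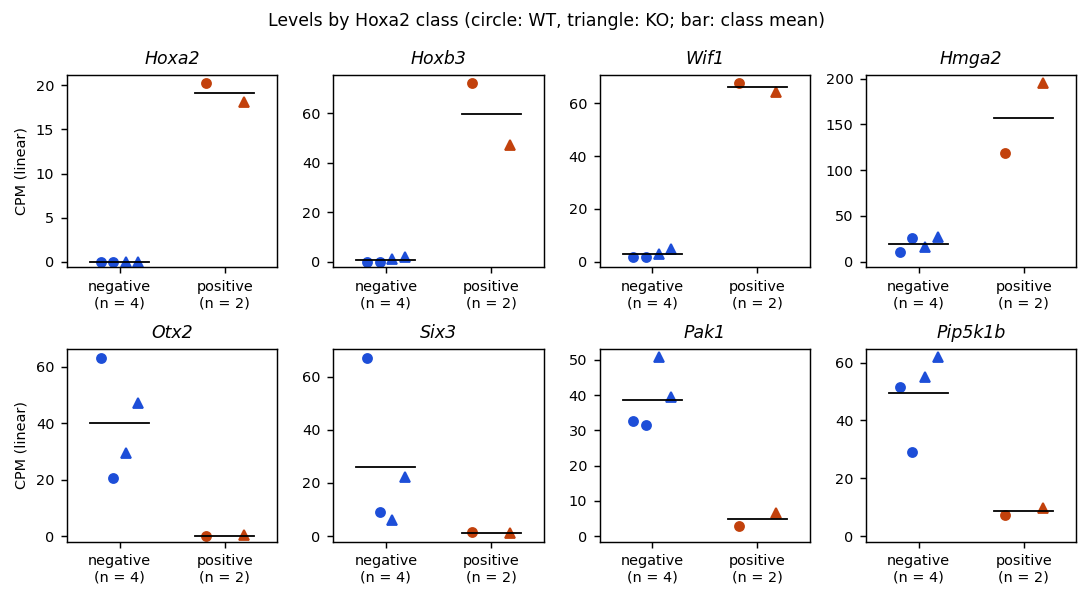
Levels of 8 genes in the 4 Hoxa2-negative and 2 Hoxa2-positive neurosphere lines, in CPM on linear axes; each point is a line (circle WT, triangle KO) and the bar is the class mean. Otx2 is at 0 and 0.370 CPM in the positive lines and at 20.4 CPM or more in the negative ones, and Wif1 is at 64.4 and 67.5 CPM in the positive lines and at most 4.77 CPM in the others.

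Over all other genes, 4 of 11121 passed in the edgeR test with genotype as covariate (0.0360%), 2 higher and 2 lower in the positive lines, and 956 had an unadjusted p under 0.05. The lines were grouped by a level read from the same libraries, so these p-values describe which genes went with Hoxa2 across 6 lines and not the effect of a treatment. With 2 lines against 4 an exact permutation test of a single gene cannot go below p = 0.0667. Wif1, Zc3hav1 and Gm28438 were among the called genes. Without WT line 1, or without KO line 1, none of the 4 passed in edgeR, with 558 and 703 genes at an unadjusted p under 0.05, and without WT line 3 the count was 29.

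Wif1, a secreted inhibitor of WNT ligands, rose in the positive lines. Its level was 67.5 and 64.4 CPM there, against 1.95, 1.73, 2.87 and 4.77 CPM in the negative lines, and the groups did not overlap. The log2 difference was 4.56 (SE 0.37, edgeR adjusted p = 0.0233), and it was 4.59 between the WT lines and 3.79 between the KO lines on the log2(CPM + 1) scale. The call of Wif1 was lost without WT line 2 (edgeR adjusted p = 0.0918) and with TPM in limma (0.0572). Wif1 lies at chr10:121033960-121100650 (GRCm38, plus strand).

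Zc3hav1, which encodes an antiviral zinc-finger protein that binds RNA, had 7.19, 4.19, 33.1 and 42.9 CPM in the negative lines, 0 in WT line 2 and 0.386 CPM in KO line 3. It fell in edgeR (adjusted p = 0.0488), with a negative to positive ratio of 86.9 (95% exact counting interval 16.0 to 3595). The call of Zc3hav1 was lost in edgeR with the stricter filter (adjusted p = 0.0552), without robust estimation (0.0704), without the genotype term (0.417) and with Ddx3y status as covariate (0.0834), and with TPM in limma (0.462, log2 difference -2.14 against -6.57). It was also lost without WT line 2 (0.0918), KO line 2 (0.146) or KO line 3 (0.401). Its level varied among the negative lines, being higher in the 2 KO lines than in the 2 WT lines.

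Gm28438 is an unprocessed pseudogene at chr1:24612775-24613119, whose 345 bases are 99.7% identical to the mitochondrial gene mt-Nd3, and its counts are uncertain because reads can be split between the copies. It had 8.29 CPM in WT line 2, 440 CPM in KO line 3 and 0 in the negative lines, passing in edgeR (adjusted p = 0.0299) and not in DESeq2 (adjusted p = 0.304). Without KO line 3 its edgeR adjusted p was 0.962. The call of Gm28438 was lost in edgeR without robust estimation (adjusted p = 0.0704), without the genotype term (0.503) and with Ddx3y status as covariate (0.0680). It was also lost with TPM in limma (adjusted p = 0.196) and with all 14 libraries in 1 edgeR fit (0.527). Without KO line 2 its edgeR adjusted p was 0.0579, so the call was lost there too. Among the MEF lines Gm28438 had 266 CPM in WT line 3, 230 and 240 CPM in KO lines 1 and 2, and 0 in the others. mt-Nd3 itself had 3808 and 3789 CPM in the positive and 4604 to 5961 CPM in the negative neurosphere lines.

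At an adjusted p under 0.1 edgeR called 15 genes (0.135%), 7 higher and 8 lower, among them Hoxb3 and Otx2. Hmga2, a chromatin protein of fetal stem cells, had 119 and 195 CPM in the positive and 10.9, 25.6, 16.4 and 26.8 CPM in the negative lines (log2 2.88, SE 0.38, edgeR adjusted p = 0.0804). Both positive lines lay above every negative line. Angpt1, a ligand of the receptor TIE2, had 84.3 CPM in WT line 2 and 21.1 CPM in KO line 3, the latter close to the 17.6 CPM of WT line 1. Pak1, a kinase downstream of RAC and CDC42, had 2.96 and 6.66 CPM in the positive lines and 31.5 to 50.8 CPM in the negative lines (log2 -3.08, SE 0.36, edgeR adjusted p = 0.0674). Brinp3 showed a genotype pattern among the negative lines, with 1.17 and 2.77 CPM in WT and 53.6 and 106 CPM in KO.

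DESeq2 with the same terms called 115 genes, 30 higher (0.270%) and 85 lower (0.764%), and in 110 of them the classes did not overlap. Among all tested genes both positive lines lay above all negative lines in 13.0% and below them in 8.01%. The calls were made on the same lines and the same split, so this separation is no independent evidence. DESeq2 shared 3 of the 4 edgeR calls. Among the higher genes were Tmem176a (467 and 369 CPM against 54.3 to 133 CPM, DESeq2 adjusted p = 5.47e-05) and Igf2bp2, an RNA-binding protein (58.2 and 46.2 CPM against 1.19 to 15.2 CPM, DESeq2 adjusted p = 0.00114). Among the lower genes were Spock2, a matrix proteoglycan (18.6 and 8.66 CPM against 75.2 to 136 CPM, DESeq2 adjusted p = 1.08e-07), and Dlgap1, a postsynaptic scaffold protein (38.9 and 24.8 CPM against 86.5 to 205 CPM, DESeq2 adjusted p = 9.32e-07). These 4 genes had edgeR adjusted p-values of 0.188, 0.186, 0.108 and 0.131, so none passed there, and all were picked after their values were seen.

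**Figure D3:**
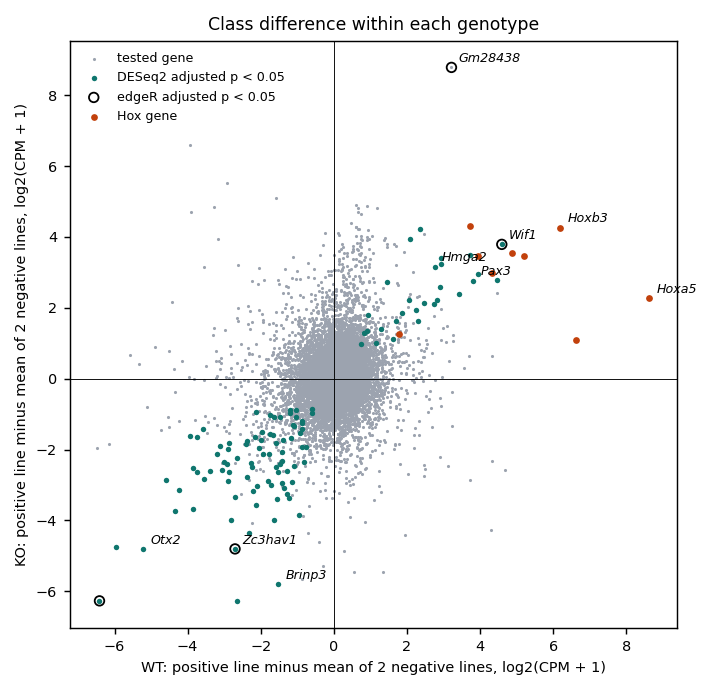
Difference between the Hoxa2-positive line and the mean of the 2 negative lines within WT (horizontal) and within KO (vertical), in log2(CPM + 1), for each of 11121 tested genes. Wif1 lies at 4.59 and 3.79, while Gm28438 and Brinp3 lie far from the diagonal.

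Hindbrain factors other than Hox genes did not separate the classes as a list. Of 20 listed, 19 were tested, 12 of them had a positive log2 difference and the median was 0.32. None passed in edgeR. Nr2f2, an orphan nuclear receptor, had 102 and 48.8 CPM in the positive and 5.47, 2.44, 1.23 and 22.7 CPM in the negative lines (DESeq2 adjusted p = 0.0257, edgeR adjusted p = 0.554). Meis1, Meis2 and Pbx3, cofactors of HOX proteins, overlapped between the classes.

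Among 30 listed factors of hindbrain progenitors and neurons, 6 were tested. Pax3, a factor of dorsal neural tube and neural crest, had 15.4 and 10.0 CPM in the positive and 0, 0.347, 1.64 and 0 CPM in the negative lines (DESeq2 adjusted p = 0.0285, edgeR adjusted p = 0.320). Pax7, its paralog, had 7.89 CPM in WT line 2 and 0 in the other 5 lines, KO line 3 included. Of 22 midbrain and isthmus genes 3 were tested, all with a negative log2 difference (median -1.70), and none passed in either tool. Cnpy1, an isthmus gene of FGF signalling, had 0 CPM in WT line 2 and 4.07 CPM in KO line 3, against 5.20, 7.78, 13.7 and 30.1 CPM in the negative lines.

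Retinoic acid sets Hox domains in the hindbrain, and 9 of 21 listed retinoid genes were tested. Of the 9, 6 had a positive log2 difference (median 0.23), and none passed in edgeR or DESeq2. Both positive lines lay above all negative lines in 2 of the 9 and below in 2, beside 13.0% and 8.01% of all tested genes. Cyp26b1, which degrades retinoic acid, had 1.97 and 8.51 CPM in the positive and 10.1 to 48.8 CPM in the negative lines, and Rarb, a receptor for it, had 22.7 and 20.3 CPM against 0.781 to 15.5 CPM. Neither passed in either tool (edgeR adjusted p = 0.556 and 0.647, DESeq2 adjusted p = 0.0652 and 0.710). Rdh10, an enzyme of retinoic acid synthesis, had 14.8 and 17.8 CPM in the positive and 19.4 to 85.9 CPM in the negative lines. It passed in neither tool (edgeR adjusted p = 0.602, DESeq2 adjusted p = 0.569). Reads of Rarb and of Top2b, whose last exon overlaps on the opposite strand, could be confused only where strand was not used in counting, which is not stated in the sources used here.

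Both classes held markers of neural stem cells and glia. Sox2, a neural stem cell factor, had 611 to 1278 CPM in all 6 lines and Slc1a3, a glutamate transporter of radial glia and astrocytes, 1657 to 3272 CPM. In this bulk RNA, fewer cells of a type and less RNA per cell cannot be told apart. The list of neural stem and radial glia genes had 13 of 19 tested members with a negative log2 difference (median -0.50). DESeq2 called 2 of them as lower and edgeR none, where 0.764% and 0.0360% of all tested genes were called. Nr2e1, given above among the forebrain factors, was 1 of these 2, so the lists are not separate results. The neuron list had 11 of 14 negative (median -0.88), the astrocyte list 8 of 15 (median 0.00) and the oligodendrocyte list 8 of 11 (median -0.58). Summed markers of mesenchyme and meninges were 72.8 to 197 CPM in the neurosphere lines and 19054 to 26354 CPM in the MEF lines. Macrophage and blood markers summed to at most 2.96 CPM.

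The neural crest and Schwann cell list summed to 274 and 503 CPM in the positive lines and to 1268 to 3081 CPM in the negative lines. Most of it was Ednrb, the endothelin B receptor, which astrocytes and radial glia also express: it had 220 and 461 CPM in the positive and 1225 to 3015 CPM in the negative lines (DESeq2 adjusted p = 3.15e-06, edgeR adjusted p = 0.294). Sox10, the defining factor of that lineage, was at 0 in both positive lines and in WT line 3 and KO line 2, and at 7.42 and 9.42 CPM in WT line 1 and KO line 1.

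Genes of the cell cycle leaned towards the positive lines without parting the classes. All 20 tested S phase genes and all 21 tested genes of G2 and M phase had a positive log2 difference (medians 1.43 and 1.81), and none passed in edgeR or DESeq2. Summed G2 and M phase levels were 1187 CPM in WT line 2 and 2877 CPM in KO line 3, against 382, 1456, 575 and 67.9 CPM in WT lines 1 and 3 and KO lines 1 and 2. The negative WT line 3 thus lay above the positive WT line 2. In 3 genes of each list both positive lines lay above all negative lines, a share near the 13.0% of all tested genes. Top2a, a topoisomerase of dividing cells, ran from 2.98 CPM in KO line 2 to 698 CPM in KO line 3. The part of proliferation in the class differences was not tested.

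**Figure D4:**
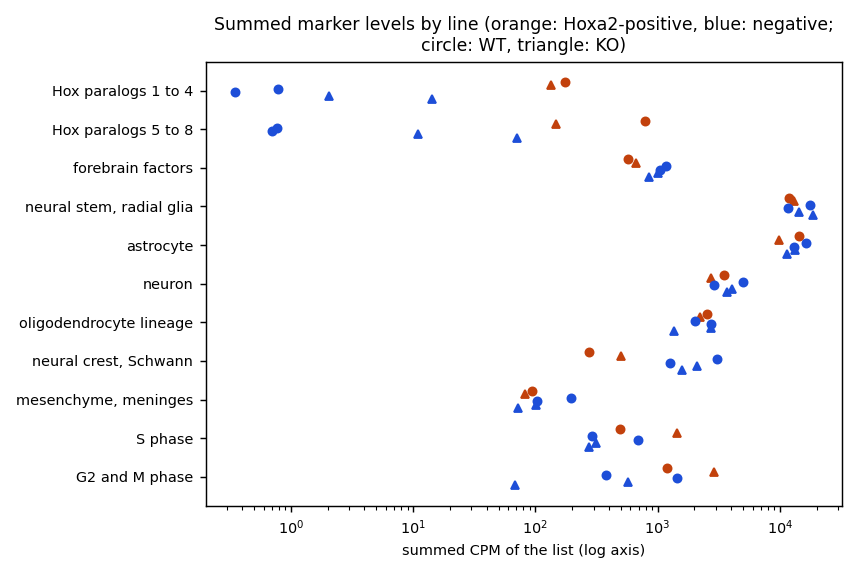
Summed CPM of 11 marker lists (rows, log axis) in each neurosphere line; orange points are the 2 Hoxa2-positive lines, blue the 4 negative ones, circles WT and triangles KO. The sum of Hox paralogs 1 to 4 includes Hoxa2 itself, which made the split. Forebrain sums are 572 and 663 CPM in the positive and 848 CPM or more in the negative lines. Much of each forebrain sum is Etv1, which overlaps between the classes (332 and 371 CPM in the positive, 287 to 672 CPM in the negative lines). For G2 and M phase a negative WT line at 1456 CPM lies above the positive WT line.

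Other features of the libraries did not follow the classes. The first principal component held 40.4% of the variance, with WT line 2 at 27.6 and KO line 3 at 48.4, and the negative WT line 3 lay between them at 28.7. The mitochondrial share of counts was 13.8% in both positive lines and 12.8% to 16.7% in the negative lines. The Y-linked gene Ddx3y had 137 CPM in WT line 1 and 135 CPM in KO line 3 and under 1 CPM in the others, so each class held lines with and without it. With Ddx3y status as a further covariate, chosen after the data were seen, edgeR called 5 genes, of which 2, Wif1 among them, were shared with the 4.

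Because each genotype held 1 positive line, genotype could be compared with the class taken into account. H3f3a was the only one of 11122 genes that passed in edgeR between KO and WT (0.00899%), with 334 at an unadjusted p under 0.05, and it was also the only one without the class term, with 242. The class difference was then compared between genotypes. No gene passed for the interaction of genotype and class in edgeR, with 474 at an unadjusted p under 0.05, and DESeq2 called 22. Gpr37l1, a receptor of astrocytes, had the smallest p for the interaction in edgeR, which did not pass: 45.8 CPM in the positive and 13.3 and 9.36 CPM in the negative WT lines, against 8.51 CPM in the positive and 168 and 240 CPM in the negative KO lines. Each genotype had a single positive line, so that line's own deviation and an interaction cannot be told apart.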

How the data were processed

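QuantSeq forward 3′ libraries of 6 neurosphere and 8 MEF lines were used. Per transcript, the deposited values are expected counts and TPM, which the authors made with Salmon 1.1.0 per the submitters' processing notes. Those notes also name edgeR. Transcript set, build and options are not stated there or in the labels. Expected counts were summed to 35449 genes with GENCODE M21 (GRCm38), of 116945 transcripts per file 1000 having no match (0.352% to 0.425% of neurosphere reads), and rounded for tests. CPM is expected reads over the sum of the file, times 1000000.

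Lines were classed at 5 CPM of Hoxa2, and Hoxa2 was taken out of the tested genes before adjustment. edgeR 4.0.16 (R 4.3.3) fitted genotype and class with TMM, the default filter by class, the robust quasi-likelihood test and Benjamini-Hochberg adjustment at 0.05; the SE is that of the log2 difference. The interaction was a further fit. DESeq2 1.42.0, limma 3.58.1 on the deposited TPM (pseudocount 1) and other settings were alternatives. The edgeR script was tested on simulated data. Independent lines are replicates, though whether each came from its own embryo is not given. Floors and ratio intervals cover counting error only, since PCR copies are not marked.

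The members, gene lists and named-gene rule were chosen with earlier results of these data known. The rule names Hoxa2, Otx2, Hox genes of at least 1 CPM, up to 12 called genes each way, called list members, the highest region genes and H3f3a and H3f3b; genes from the DESeq2 calls and the marker lists were added after their values were seen. The Hox antisense genes were not analysed here, and 1 of the 4 called genes is not reported here. Replicate numbers are not known to pair lines. Deviations of same-numbered WT and KO lines correlated at 0.11, -0.11 and 0.19, and those of differently numbered lines at -0.44 to 0.38. With 3 lines per genotype these values cannot decide whether lines were paired.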

Additional observations from a re-analysis of the deposited data

Results flagged for a closer look

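Among the 4 Hoxa2-negative lines, 8 of 43 genes looked at had 1 line far from the other 3 (its gap to the nearest, over the group's range, was above Dixon's critical value), where chance flags about 1 in 20 groups of normally spread values. In KO line 2 this held for Hoxa5 at 63.8, Hoxa7 at 6.56, Hoxa9 at 18.5 and Hoxa10 at 14.3 CPM. For Hoxa7, Hoxa9 and Hoxa10 the other 3 lines were at 0, so that any level in 1 line is set apart and the chance rate does not apply; Hoxa9 and Hoxa10 were also listed only through their level in KO line 2. It also held there for En1, a midbrain and rhombomere 1 factor, at 11.9 CPM, for Rdh10, an enzyme of retinoic acid synthesis, at 85.9 CPM, and for Gbp7 at 32.1 CPM. In KO line 1 it held for Pou4f1, a sensory and midbrain neuron factor, at 20.5 CPM.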

How the results depend on the processing

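The count of 4 genes for the class became 115 with DESeq2, 514 with no filter, 1 without robust estimation, 15 at an FDR of 0.1, 2 with no genotype term and 21 with all 14 libraries in 1 fit. The genotype count of 1 became 17 with DESeq2, 138 with no filter, 2 with TPM in limma and 2 at an FDR of 0.1. The interaction count of 0 became 22 with DESeq2 and 153 with no filter. The cause of these shifts was not tested. With the replicate block the class count was 46 and the genotype count 13; the numbers are not known to pair lines, and with the block the interaction could not be fitted. Leaving out 1 line at a time gave 0 to 29 genes for the class, 0 to 3 for genotype and 0 to 18 for the interaction, which could not be fitted without WT line 2 or KO line 3.

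For the class, DESeq2 size factors gave 4 genes, all of them among the 4, and the stricter filter gave 3, all among the 4, while of the 3 with TPM in limma only 1 was. Over all settings run, the log2 difference of Wif1 stayed between 3.65 and 5.09, and its highest adjusted p was 0.222, without KO line 1. No named gene that passed for the class in edgeR with the main settings changed its direction. Some named genes that did not pass there changed theirs, such as Ddx3y, with log2 differences from -10.3 to 11.5. With 2 positive lines and genes of a few reads, a missing call is no sign of equal levels.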
